A study of Homo sapiens with 8 samples.

Results

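The small ribosomal subunit proteins were followed here through 28 genes, RPSA to RPS29, taken by name from the annotated genes of the count tables. They are 28 of 20565 annotated genes, of which 17404 had a read, and the tables list 3333 transcript models for them, 2442 with a read. They were read in native RNA from 3 established human cell lines by direct RNA sequencing, in which a nanopore reads the RNA molecule itself without a cDNA copy. The lines were K562, derived from a chronic myelogenous leukaemia, with 2 libraries; HepG2, derived from a liver carcinoma, with 3; and GM12878, a B cell line, with 3. No line was treated, each is a single line, and the study set out to compare such reads with PacBio reads through TALON, which matches every read to a model of a transcript. The labels do not say whether libraries of a line came from separate cultures, so the spread between them may be technical. The PacBio reads were not analysed here.

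The small subunit of the ribosome holds the messenger RNA and is where the anticodon of each transfer RNA meets its codon. Its proteins are built around the 18S ribosomal RNA in the nucleolus, and nearly all are present in a single copy in the finished subunit. Messenger RNAs of ribosomal proteins commonly begin with a C inside a run of pyrimidines, the 5′ terminal oligopyrimidine (TOP) tract, through which LARP1 and mTOR signalling control their translation.

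Each library held 70374 to 461497 reads. Of the line markers, 7 of 7 erythroid leukaemia genes were read in K562, where the 8 liver markers had 0 reads and the 8 B cell markers had 2. The labels give K562 the same lymphoblastoid cell type as GM12878, which these markers do not bear out. HepG2 expressed 8 of 8 liver markers and 4 of 8 B cell markers, at 202 reads of which CD74 held 197. GM12878 expressed 8 of 8 B cell markers, against 1 of 8 liver markers and 0 of 7 erythroid ones. The summed level of the B cell markers was 3.19 to 7.0 CPM (reads scaled to the size of the library) in K562, 150.2 to 213.3 in HepG2 and 9162 to 9590 in GM12878. The 2 K562 libraries differed most from each other, with a chi-square per degree of freedom of 3.53, against 1.40 to 2.22 in the HepG2 pairs and 1.23 to 1.39 in the GM12878 pairs. Of the 28 genes, 23 were higher in K562 replicate 2 than in K562 replicate 1, by a median of 1.31 times over the 28.

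The sequences that bear on the results are shown first. RPS27 and RPS27L encode paralogous zinc-finger proteins of the subunit and differed in opposite directions between K562 and GM12878, as given further on, so that the separation of their reads matters. RPS27 lies at chr1:153990755-153992155 on the plus strand and RPS27L at chr15:63125872-63158021 on the minus strand (GRCh38). Their coding sequences in GENCODE 29 both have 255 bases, with 199 identical in position (78.0%), and capitals mark the 56 that differ:
RPS27: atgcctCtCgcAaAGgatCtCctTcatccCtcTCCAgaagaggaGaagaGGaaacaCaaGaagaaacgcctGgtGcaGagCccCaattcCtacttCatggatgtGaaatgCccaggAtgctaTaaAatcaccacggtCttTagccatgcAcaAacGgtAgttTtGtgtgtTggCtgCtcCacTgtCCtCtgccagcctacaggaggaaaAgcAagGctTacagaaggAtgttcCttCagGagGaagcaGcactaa
RPS27L: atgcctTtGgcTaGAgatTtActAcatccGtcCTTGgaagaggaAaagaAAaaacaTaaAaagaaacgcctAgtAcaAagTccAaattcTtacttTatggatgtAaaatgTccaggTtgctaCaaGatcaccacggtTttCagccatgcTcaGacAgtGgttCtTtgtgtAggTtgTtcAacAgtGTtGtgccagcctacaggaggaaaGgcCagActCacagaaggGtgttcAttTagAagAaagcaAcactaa
The differences are spread along the whole coding sequence.

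The TOP tract was looked for in RefSeq promoters (GRCh38.p14) of 25 of the 28 genes, as a C at the annotated start that opens a run of at least 5 C or T bases on the strand of the gene. These genes have 28 promoters in the table. The tract was found in 18 of the 28 (64.3%), and in 4.07% of all 35116 promoters. Within 5 bases of the start it was found in 21 of the 28 (75.0%), and in 21.1% of all promoters. The following windows of 40 bases, of which the last 15 are transcribed, show members that differed between lines with such a tract (capitals) and without one:
RPS12: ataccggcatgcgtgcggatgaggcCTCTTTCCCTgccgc
RPS18: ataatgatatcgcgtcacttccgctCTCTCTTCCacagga
RPS27: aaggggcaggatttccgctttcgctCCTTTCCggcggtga
RPS4X: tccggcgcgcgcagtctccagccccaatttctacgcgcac
RPS27L: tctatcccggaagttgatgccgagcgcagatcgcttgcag
They stand at chr6:132814544-132814583 (plus strand), chr6:33272050-33272089 (plus), chr1:153990737-153990776 (plus), chrX:72277234-72277273 (minus) and chr15:63157463-63157502 (minus). RPS4X, RPS15, RPS26, RPS27L and RPS29 had no tract within 5 bases of the start. This says only that no such run opens there, since runs further from the start were not counted.

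The 28 genes together took 8.52 ± 0.843% of the reads in K562 (SD, n = 2), 6.06 ± 0.247% in HepG2 (n = 3) and 7.77 ± 0.425% in GM12878 (n = 3). The share was 7.92% and 9.11% in the K562 libraries, and it ran between 5.83% and 6.32% in the HepG2 libraries and between 7.38% and 8.22% in the GM12878 libraries. All HepG2 libraries were therefore below all others in share of reads. With library sizes scaled by TMM, which corrects for a few very abundant RNAs in a library, the means were 8.60% in K562, 7.99% in HepG2 and 7.84% in GM12878, so the low HepG2 share depends on what the reads are divided by.

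All 28 genes passed the filter on low counts, as 28 of 4778 genes tested. Levels below are CPM over tested genes with TMM scaling. A read is 1 molecule in this assay. CPM therefore counts the molecules that were read and assigned to the gene, and is not divided by length. Molecules that were not read, or were assigned elsewhere, are not counted. By their mean over the lines, 24 of the 28 genes lay at 1478 to 7069 CPM with a median of 3159, and 22 were among the 100 most abundant genes. The other 4 were much lower, RPS28 at 593.5, RPS27L at 324.2, RPS27 at 268.0 and RPS26 at 49.1 CPM. Between the lowest and the highest line mean, the genes differed by 1.03 times in RPS16, which lies in the head of the subunit, to 3.62 times in RPS27L, with a median of 1.51.

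**Figure D1:**
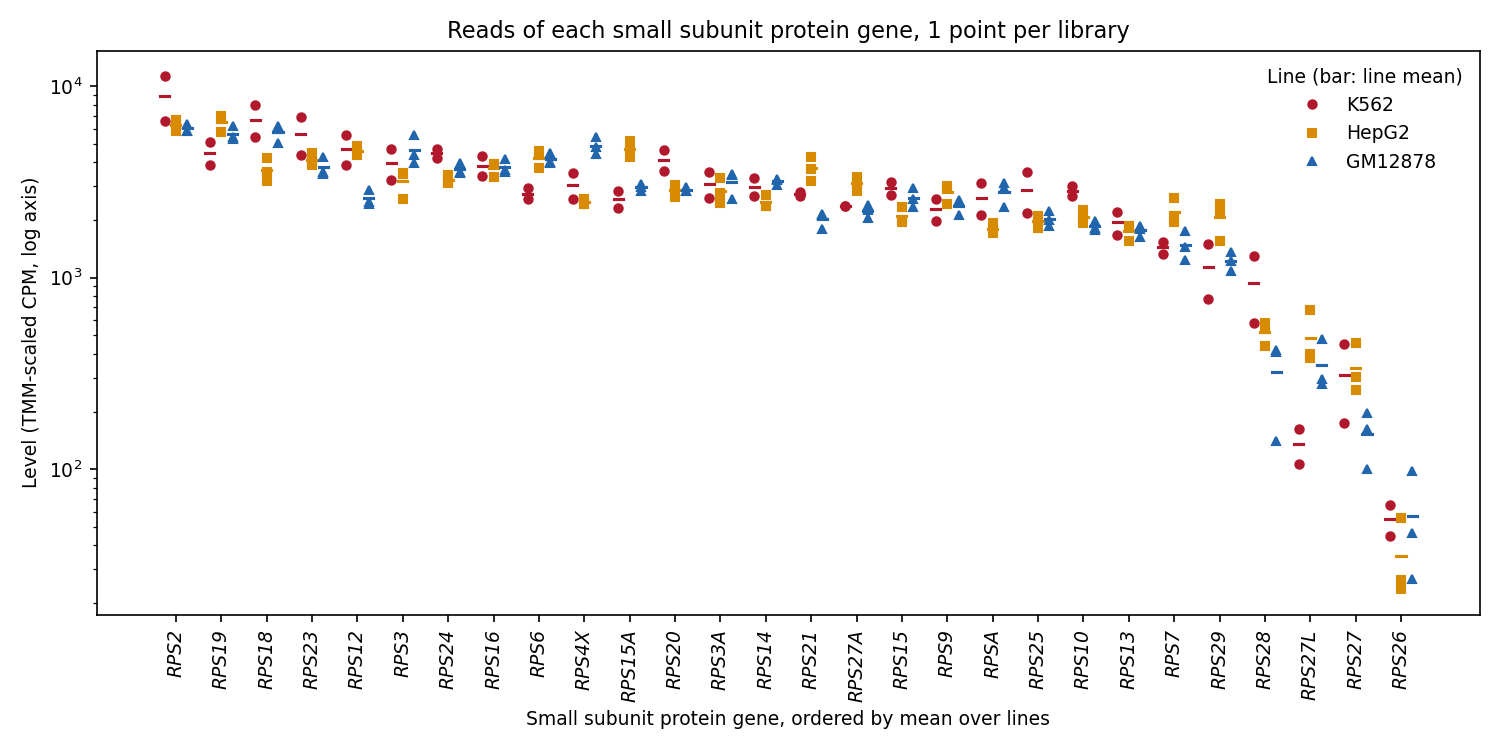
The level of each of the 28 genes in every library, as TMM-scaled CPM on a log axis, with genes ordered by their mean over lines; points are libraries and short bars are line means. A reader should see the means over lines of 24 genes at 1478 to 7069 CPM and those of RPS28, RPS27L, RPS27 and RPS26 below them, with the widest gaps between lines among those 4 and the 2 K562 points often far apart.

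RPS2, a protein near the entry of the mRNA channel, was the most abundant of the 28 and ranked 5 among all genes. It had 6579 and 11257 CPM in the K562 libraries, 6639, 6309 and 5870 CPM in HepG2, and 6347, 5853 and 5848 CPM in GM12878. The K562 libraries were both above GM12878 but overlapped HepG2, and K562 replicate 2 stood well above every other library. The change was 0.57 in K562 against GM12878 (edgeR adjusted p = 0.0124) and 0.51 in K562 against HepG2 (edgeR adjusted p = 0.0163). Without K562 replicate 2 these were 0.16 (edgeR adjusted p = 0.568) and 0.05 (edgeR adjusted p = 0.862). With reads of its pseudogenes added, the first was 0.36 (edgeR adjusted p = 0.113) and no longer passed.

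RPS19, the gene most often mutated in Diamond-Blackfan anaemia, had 3880 and 5085 CPM in K562, 6710, 5770 and 7031 CPM in HepG2, and 5427, 6208 and 5300 CPM in GM12878. K562 was below both other lines without overlap, and against HepG2 the change was -0.54 (edgeR adjusted p = 0.0114). Against GM12878 it was -0.33 and did not pass (edgeR adjusted p = 0.163).

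RPS18, a head protein that contacts the large subunit, had 5411 and 7990 CPM in K562, 4220, 3556 and 3217 CPM in HepG2, and 5967, 6219 and 5033 CPM in GM12878, so HepG2 was below all others. RPS23, which lies near the decoding centre, had 4380 and 6931 CPM in K562, 4483, 3873 and 4072 CPM in HepG2, and 3580, 4253 and 3501 CPM in GM12878. K562 replicate 1 fell inside the HepG2 range and K562 replicate 2 above it, and the change was 0.58 in K562 against GM12878 (edgeR adjusted p = 0.0121). RPS12, a protein of the head, had 3867 and 5571 CPM in K562, 4844, 4364 and 4547 CPM in HepG2, and 2493, 2874 and 2418 CPM in GM12878, where all 3 libraries were below the others.

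At the low end, RPS26, which sits at the mRNA exit, rested on 70 reads in all. It had 64.9 and 44.8 CPM in K562, 23.7, 26.4 and 55.3 CPM in HepG2, and 26.7, 46.5 and 98.4 CPM in GM12878, and all 3 lines overlapped. At this depth its 95% intervals reached beyond 2-fold in every comparison, with -1.52 to 0.55 on the log2 scale in HepG2 against GM12878 and -1.004 to 1.18 in K562 against GM12878.

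Between lines, few of the genes differed by a factor of 2, while many genes of the rest of the transcriptome did. A gene was called at an edgeR adjusted p under 0.05 and a change of at least 2-fold. In HepG2 against GM12878, 1 of the 28 was called, higher in HepG2, where 49.1% of all genes tested were called, 28% higher and 21.1% lower. In K562 against GM12878, 3 of the 28 were called, 2 higher and 1 lower in K562, where the background was 28.7% of all genes, 13.9% higher and 14.8% lower. In K562 against HepG2, 1 was called, lower in K562, against a background of 44.1%, 17.4% higher and 26.7% lower. Of the 24 small subunit genes with a mean of at least 1000 CPM, 0 were called by edgeR in these comparisons, and of the 131 other genes above that level 32.1%, 16.0% and 27.5% were. The test was the same for both sets, and the difference between the sets was not tested. At an unadjusted p under 0.05, 12, 12 and 18 of the 28 genes passed, but the share of all genes at that threshold was not computed. With known models only, 3, 6 and 3 of the small subunit genes were called, and with either of the K562 libraries left out 3 were called in K562 against HepG2. Comparisons share libraries: HepG2 enters 2 of them, and so do K562 and GM12878.

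The small number of calls goes with small changes. The 95% interval of the change lay wholly within 2-fold for 21, 22 and 21 of the 28 genes in HepG2 against GM12878, K562 against GM12878 and K562 against HepG2. The median absolute log2 change was 0.40, 0.25 and 0.47 for the 28 genes, and 1.06, 0.71 and 0.95 for all genes tested. Among genes with a mean of at least 1000 CPM it was 0.27, 0.22 and 0.46 for the 24 small subunit genes. For the 131 other genes at that level it was 0.49, 0.39 and 0.48, so the medians were close in K562 against HepG2. The median signed log2 change was 0.04, 0.08 and 0.21 for the 28 genes, and 0.02, 0.00 and -0.07 for all genes tested.

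**Figure D2:**
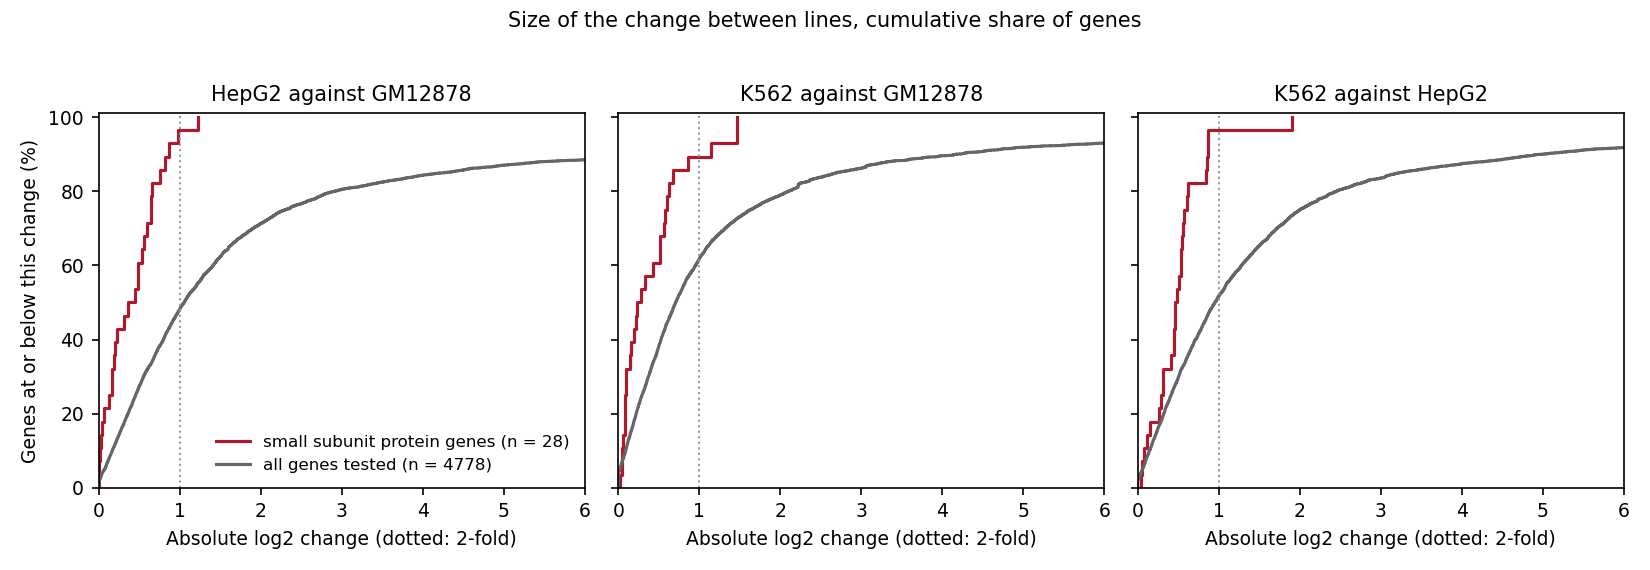
The cumulative share of genes whose absolute log2 change is at or below the value on the x axis, for the 28 small subunit genes (red) and for all 4778 genes tested (grey), in each comparison. The red curves lie left of the grey ones: 27, 25 and 27 of the 28 estimates were within 2-fold (dotted), against 48.0%, 61.7% and 51.7% of all genes.

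Below 2-fold, differences between lines were common. At an edgeR adjusted p under 0.05 and any fold, 7 of the 28 were higher and 4 lower in HepG2 than in GM12878, with 55.6% of all genes passing that test, 30.9% higher and 24.7% lower. In K562 against GM12878, 8 were higher and 3 lower, against 31.8% of all genes, 15.7% higher and 16.2% lower. In K562 against HepG2, 10 were higher and 7 lower, against 50.4% of all genes, 21% higher and 29.4% lower. These are 39.3%, 39.3% and 60.7% of the 28 genes, below the background in HepG2 against GM12878 and above it in the other comparisons. The counts depend on the fit: the 17 in K562 against HepG2 were 11 by DESeq2, 10 without K562 replicate 2, 11 without HepG2 replicate 2 and 8 without HepG2 replicate 3, and the 11 in K562 against GM12878 were 8 without GM12878 replicate 1. Shares above the background are therefore not read as a result. The libraries of the lines did not overlap for 14, 12 and 16 of the 28 (50%, 42.9% and 57.1%), below the 63.1%, 48.8% and 64% of all genes.

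Many changes that involve K562 rest on 1 library. Of 28 such changes, 14 no longer passed an edgeR adjusted p of 0.05 without K562 replicate 2. These were RPS2, RPS20, RPS23, RPS25 and RPS27 against GM12878, and RPS2, RPS10, RPS20, RPS21, RPS23, RPS24, RPS25, RPS28 and RPSA against HepG2. Without K562 replicate 1, 7 of the 28 no longer passed, and without HepG2 replicate 3, 10 of the 28 that involve HepG2. With known models only, 12 of the 39 changes in all no longer passed.

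**Figure D3:**
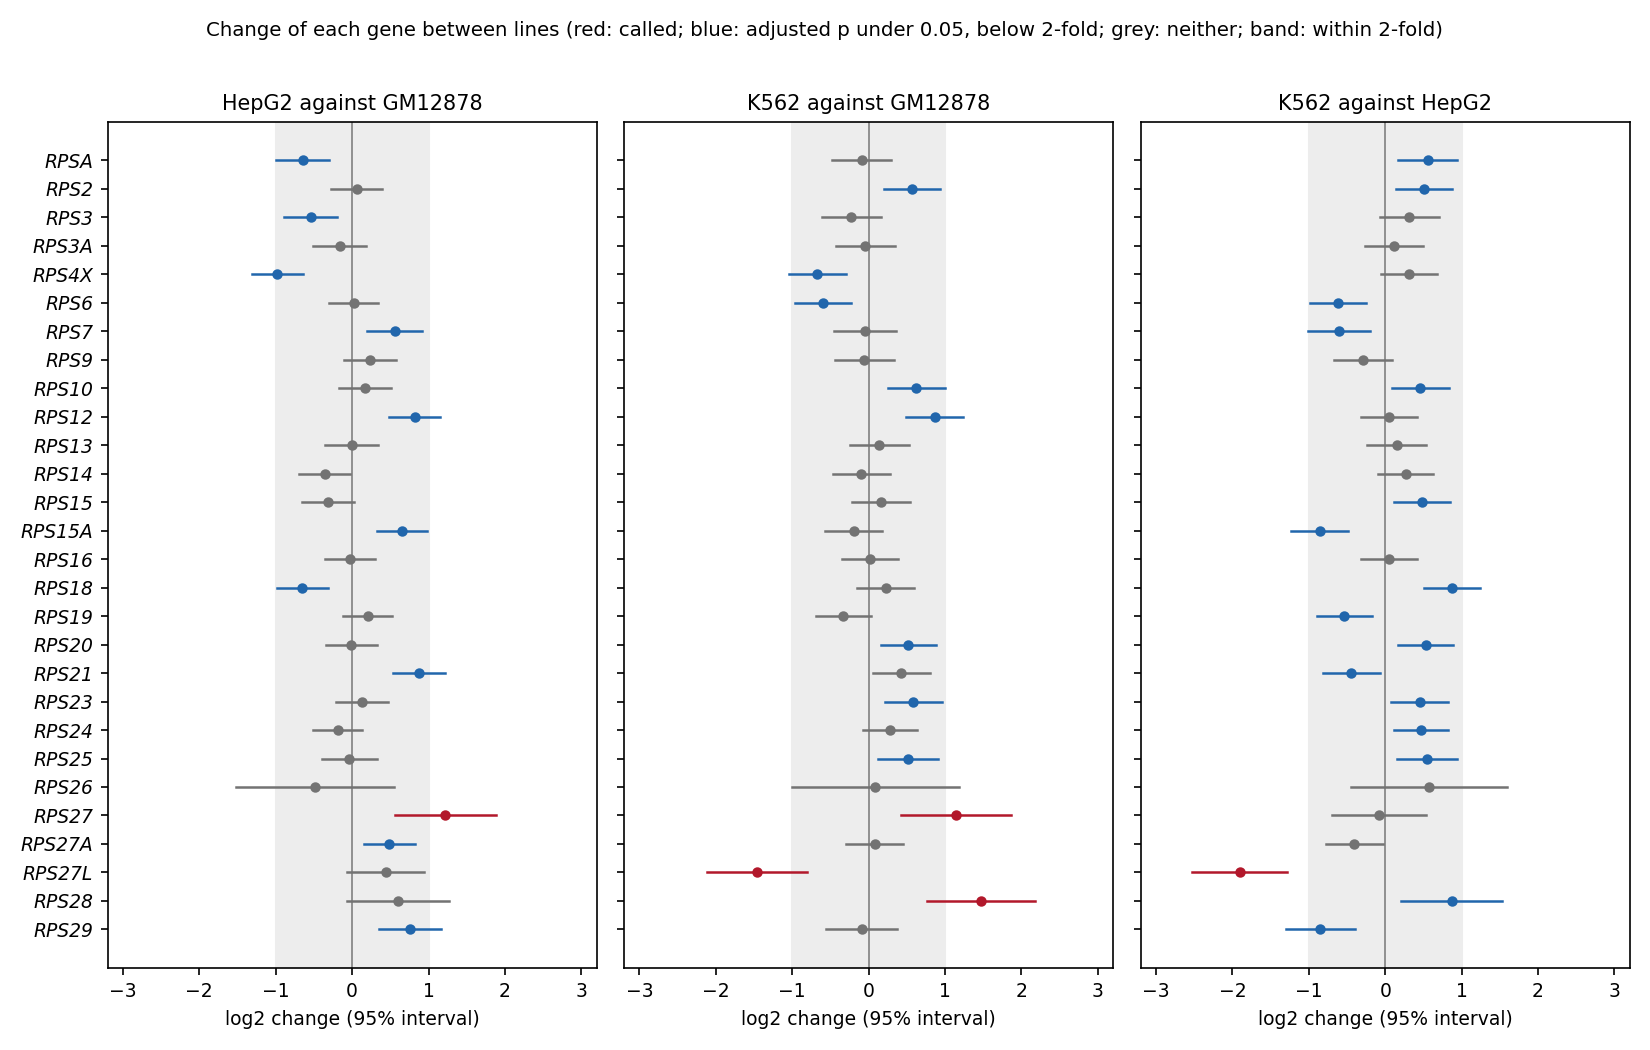
The log2 change of each gene in the 3 comparisons, first-named line over second, with its 95% interval; the grey band marks changes within 2-fold. Red points were called (RPS27, RPS27L and RPS28), blue ones had an adjusted p under 0.05 below 2-fold, and grey ones neither.

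RPS27 and its paralog RPS27L, whose coding sequences are shown above, were among the 3 genes called. RPS27 had 175.2 and 448.5 CPM in K562, 456.0, 258.9 and 302.2 CPM in HepG2, and 100, 162.9 and 196.8 CPM in GM12878. All HepG2 libraries were above all GM12878 libraries, while K562 replicate 1 fell inside the GM12878 range. RPS27 was higher in HepG2 than in GM12878 by 1.22 on the log2 scale (95% interval 0.56 to 1.88, edgeR adjusted p = 0.00165) and higher in K562 than in GM12878 by 1.14 (0.42 to 1.86, edgeR adjusted p = 0.0119). In K562 against HepG2 its change was -0.08 (-0.70 to 0.54). Without HepG2 replicate 1 or GM12878 replicate 1 the HepG2 against GM12878 change fell just below 2-fold, and then 0 of the 28 genes were called there, with 11 in each case at an edgeR adjusted p under 0.05 and any fold. Without K562 replicate 2 the K562 against GM12878 change was 0.29, with an edgeR adjusted p of 0.661, and without GM12878 replicate 1 it was 0.96 with 0.0689.

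RPS27L, a p53-induced paralog in human cells, was lowest in K562. It had 162.2 and 106.9 CPM in K562, 382.0, 401.6 and 678.1 CPM in HepG2, and 280.0, 477.1 and 295.2 CPM in GM12878. Both K562 libraries were below all others, and HepG2 and GM12878 overlapped. RPS27L was lower in K562 than in GM12878, at -1.46 on the log2 scale (-2.11 to -0.81, edgeR adjusted p = 0.00029), and lower than in HepG2, at -1.90 (-2.53 to -1.28, edgeR adjusted p = 8.48e-07). HepG2 against GM12878 gave 0.44 (-0.06 to 0.95). In both comparisons the gene stayed past the adjusted p threshold with each library of the 2 lines left out in turn.

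Within libraries, the pair changed places. RPS27 and RPS27L had 27 and 25 reads in K562 replicate 1, and 130 and 31 in K562 replicate 2. In HepG2 they had 154 and 129, 49 and 76, and 82 and 184 reads. In GM12878 they had 15 and 42, 28 and 82, and 14 and 21 reads. RPS27 thus had more reads than its paralog in K562 replicate 2 and in 1 of 3 HepG2 libraries, and fewer in all 3 GM12878 libraries. In K562 replicate 1 the counts were nearly equal, so the excess in K562 rests on 1 library. No test was made of this ratio.

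RPS28, a small protein of the head near the mRNA exit, was the third gene called. It lies at chr19:8321158-8323340 on the plus strand (GRCh38), where NDUFA7 on the opposite strand also had 299 reads. It had 577.5 and 1301 CPM in K562, 580.4, 438.5 and 538.0 CPM in HepG2, and 420.0, 407.3 and 140.6 CPM in GM12878. Both K562 libraries were above GM12878, but replicate 1 lay at the top of the HepG2 range and GM12878 replicate 3, with 10 reads of RPS28, was far below its fellows. The change was 1.47 in K562 against GM12878 (0.76 to 2.18, edgeR adjusted p = 0.00211), 0.87 in K562 against HepG2 (0.21 to 1.53, edgeR adjusted p = 0.0273) and 0.60 in HepG2 against GM12878 (-0.07 to 1.27). Without K562 replicate 2 the first fell below 2-fold, at 0.75, with an edgeR adjusted p of 0.0278, and the second was 0.12 with 0.744. Without that library 1 of the 28 genes was called in K562 against GM12878.

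Among the proteins of the head, 5 of 12 were higher in K562 than in GM12878 and 0 lower at any fold, with a median log2 change of 0.19, where 15.7% of all genes were higher and 16.2% lower. In HepG2 against GM12878 3 were higher and 2 lower (median 0.08), against 30.9% and 24.7% of all genes. In K562 against HepG2 6 were higher and 2 lower (median 0.39), against 21% and 29.4% of all genes. Many changes that involve K562 rest on 1 library, as given above, so shares above the background are not read as a result here either. RPS12 was higher in HepG2 than in GM12878 by 0.82 (edgeR adjusted p = 3.81e-05) and in K562 than in GM12878 by 0.86 (edgeR adjusted p = 0.000152). RPS18 was lower in HepG2 than in GM12878, at -0.65 (edgeR adjusted p = 0.000797), and higher in K562 than in HepG2 by 0.87 (edgeR adjusted p = 6.34e-05).

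Other head genes moved by less. RPS10, which binds the beak of the head, had 2686 and 3008 CPM in K562, 2247, 1939 and 2023 CPM in HepG2, and 1780, 1815 and 1968 CPM in GM12878. Both K562 libraries were above all others, by 0.62 against GM12878 (edgeR adjusted p = 0.00722) and 0.46 against HepG2 (edgeR adjusted p = 0.0325). RPS29, a zinc-binding head protein, had 772.1 and 1508 CPM in K562, 2440, 1559 and 2218 CPM in HepG2, and 1367, 1216 and 1083 CPM in GM12878. HepG2 was above every other library, by 0.76 against GM12878 (edgeR adjusted p = 0.00151), and K562 against HepG2 gave -0.85 (edgeR adjusted p = 0.00174).

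RPS27A, made as a fusion with ubiquitin, had 2375 and 2356 CPM in K562, 3361, 2821 and 3213 CPM in HepG2, and 2253, 2391 and 2039 CPM in GM12878. HepG2 was above both other lines, by 0.49 against GM12878 (edgeR adjusted p = 0.0108). K562 against HepG2 gave -0.41 and did not pass (edgeR adjusted p = 0.0622). RPS25, used by several viral internal ribosome entry sites, had 2180 and 3581 CPM in K562, 2099, 1823 and 2012 CPM in HepG2, and 1993, 2222 and 1856 CPM in GM12878. K562 replicate 1 fell within the GM12878 range, and the change against GM12878 was 0.51 (edgeR adjusted p = 0.0401).

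Among the proteins of the body and platform, 4 of 16 were higher and 2 lower in HepG2 than in GM12878 at any fold (median log2 change 0.04), a share below the 55.6% of all genes. In K562 against GM12878 3 were higher and 3 lower (median -0.04), against 31.8% of all genes, and in K562 against HepG2 4 were higher and 5 lower (median 0.13), against 50.4%. RPS4X, the X-linked copy of a body protein, was highest in GM12878. It had 2589 and 3529 CPM in K562, 2437, 2568 and 2440 CPM in HepG2, and 4794, 5405 and 4429 CPM in GM12878. GM12878 did not overlap the others, with changes of -0.98 in HepG2 (-1.31 to -0.64, edgeR adjusted p = 1.42e-06) and -0.67 in K562 (edgeR adjusted p = 0.00376).

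RPS15A and RPS21 were highest in HepG2. RPS15A, of the body, had 2310 and 2853 CPM in K562, 5176, 4253 and 4603 CPM in HepG2, and 2847, 2985 and 3079 CPM in GM12878. HepG2 was above all other libraries, by 0.66 against GM12878 (edgeR adjusted p = 0.000566), and K562 against HepG2 gave -0.86 (edgeR adjusted p = 0.000111). RPS21, a small protein of the body, had 2810 and 2667 CPM in K562, 4246, 3207 and 3711 CPM in HepG2, and 2133, 2153 and 1785 CPM in GM12878. The 3 lines did not overlap in RPS21, which was higher in HepG2 than in GM12878 by 0.87 (edgeR adjusted p = 1.53e-05) and lower in K562 than in HepG2, at -0.45 (edgeR adjusted p = 0.0423). K562 against GM12878 gave 0.43 and did not pass (edgeR adjusted p = 0.0742).

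RPS6, the substrate of S6 kinases, was lowest in K562. It had 2569 and 2936 CPM in K562, 4379, 4576 and 3763 CPM in HepG2, and 4033, 4486 and 3993 CPM in GM12878. K562 was below both other lines without overlap, at -0.60 against GM12878 (edgeR adjusted p = 0.00891) and -0.62 against HepG2 (edgeR adjusted p = 0.00379). RPS14, whose loss of a copy marks the 5q- syndrome, had 2660 and 3305 CPM in K562, 2703, 2378 and 2370 CPM in HepG2, and 3047, 3252 and 3276 CPM in GM12878, and passed the test in no comparison. RPS24, known for alternative ends, had 4218 and 4709 CPM in K562, 3447, 3107 and 3154 CPM in HepG2, and 3533, 3956 and 3557 CPM in GM12878. K562 was above HepG2 by 0.46 (edgeR adjusted p = 0.0245).

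The remaining genes are given by their changes. RPS3, a head protein at the mRNA entry, was lower in HepG2 than in GM12878, at -0.54 (edgeR adjusted p = 0.00687), and RPSA, a protein at the mRNA exit also known as a laminin receptor, at -0.65 (edgeR adjusted p = 0.00138). RPS7, of the body, was highest in HepG2, by 0.56 against GM12878 (edgeR adjusted p = 0.00686; 0.0665 with pseudogene reads added), with -0.60 in K562 against HepG2 (edgeR adjusted p = 0.0101). RPS20 was higher in K562, by 0.52 against GM12878 (edgeR adjusted p = 0.0226) and 0.53 against HepG2 (edgeR adjusted p = 0.012), and RPS15, whose tail reaches the decoding site, by 0.48 against HepG2 (edgeR adjusted p = 0.0264). RPS3A, RPS9, RPS13 and RPS16 passed in no comparison, and neither did RPS14 and RPS26.

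Of 10 members linked to Diamond-Blackfan anaemia, an inherited failure of red cell production, 4 were higher and 0 lower in HepG2 than in GM12878 at any fold, and 4 higher and 0 lower in K562 than in GM12878. In K562 against HepG2 4 were higher and 4 lower. Among all genes 55.6%, 31.8% and 50.4% passed in HepG2 against GM12878, K562 against GM12878 and K562 against HepG2. In this order, 30.9%, 15.7% and 21% of all genes were higher and 24.7%, 16.2% and 29.4% lower. With both directions together, the list's share was below that of all genes in HepG2 against GM12878 and above it in the other comparisons. By direction, the share higher was above that of all genes in each comparison, and the share lower only in K562 against HepG2. Many changes that involve K562 no longer passed with a library left out, as given above. Shares above the background are therefore not read as a result here either. RPS27 and RPS28 belong to this list, so its called members are those described above.

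The reads of these genes often fell on a transcript model that is not annotated. The most-read model took from 15.9% of the reads of its gene in RPS6 to 94.9% in RPS29. TALON classes a model as known when its splice sites follow an annotated transcript, as an incomplete splice match when they are part of one, as a new combination when annotated sites are joined in an unannotated way, and as an unannotated site model when at least 1 site is not annotated. Known models took 49.6 ± 1.75% of the reads of the 28 genes in K562, 43.3 ± 2.69% in HepG2 and 45.9 ± 2.65% in GM12878 (SD, n = 2, 3 and 3). New combinations took 33.7 ± 0.0102%, 38.0 ± 0.761% and 33.6 ± 1.02% in these lines. In reads of all other annotated genes they took 16.3 ± 0.249% in K562, 15.8 ± 0.239% in HepG2 and 16.0 ± 0.533% in GM12878. Every library was thus higher for the 28 genes than for other genes.

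Reads that TALON classed as genomic were rare. They took 0.129%, 0.157% and 0.156% of the reads of the 28 genes in K562, HepG2 and GM12878, and 10.7%, 12.3% and 11.5% of the reads of other genes. Incomplete splice matches took 10.2%, 13.5% and 14% of the reads of the 28 genes in these lines, and 19.0%, 27.2% and 18.6% of the reads of other genes. Of these, 79.7%, 84.8% and 73.6% were of the suffix kind, which keeps the 3′ end and lacks the 5′ end.

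**Figure D4:**
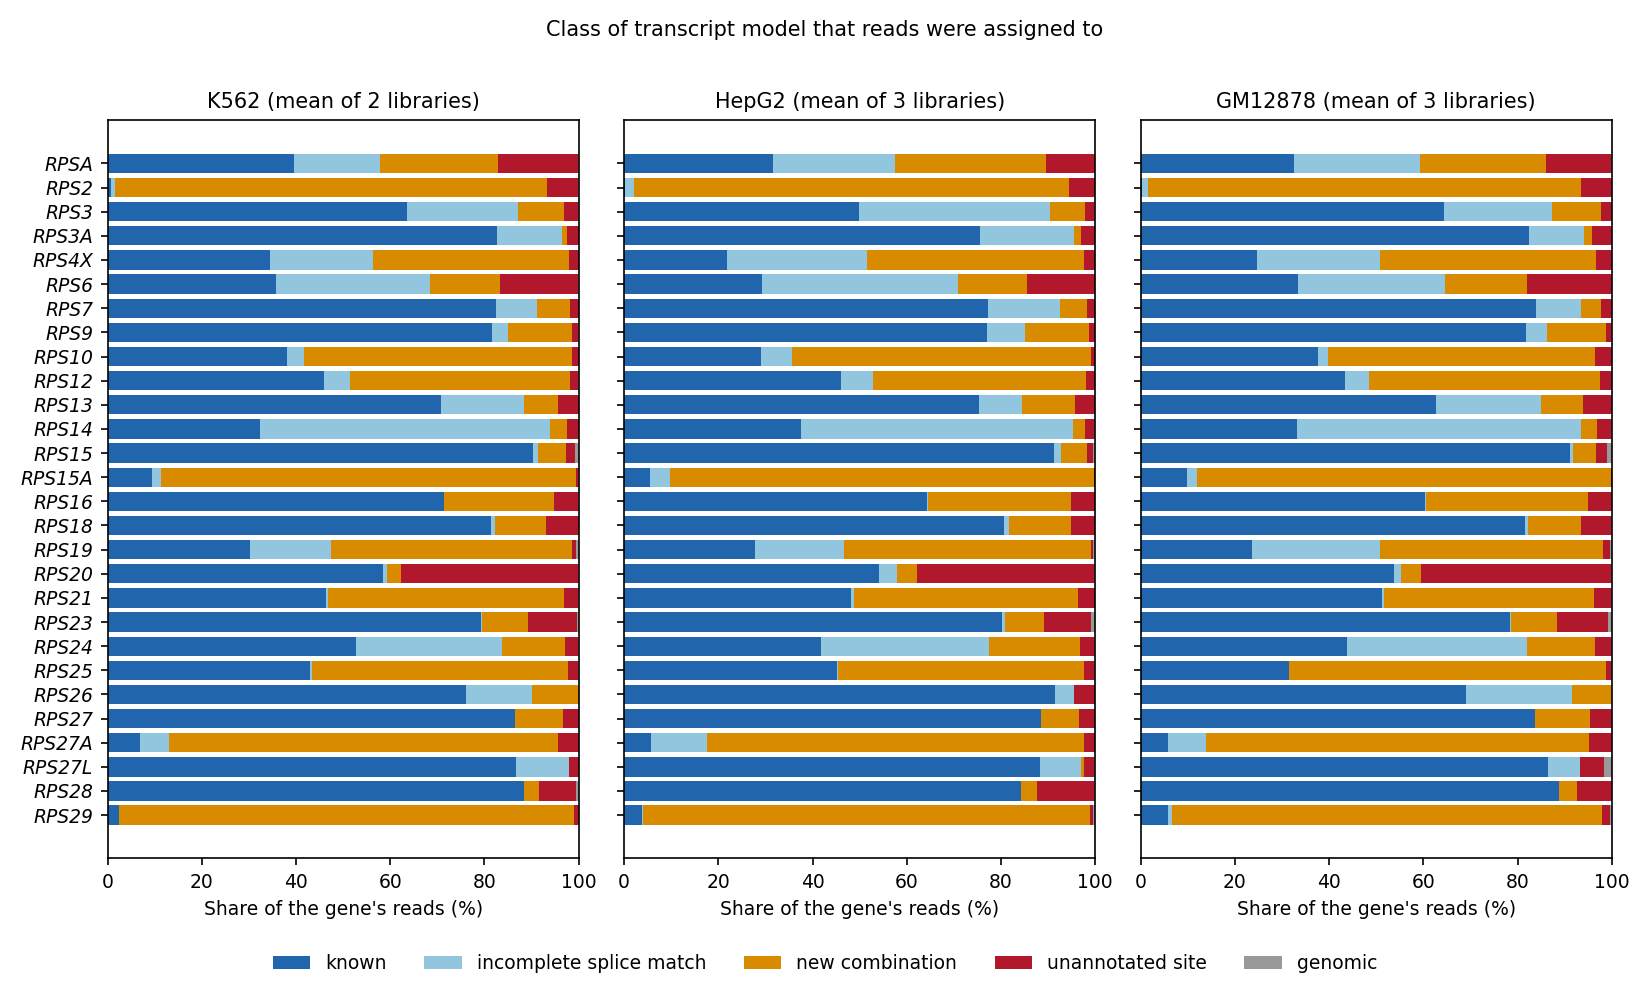
The share of each gene's reads in each class of model, as the mean over the libraries of K562, HepG2 and GM12878, with 28 genes down the page. In all 3 lines RPS2, RPS15A, RPS27A and RPS29 have the largest shares of new combinations. RPS27A is lowest among them at 82.6%, 80.0% and 81.3% in K562, HepG2 and GM12878. RPS10 and RPS25 have smaller shares, at 52.2% to 66.5% and 45.8% to 72.7% by library. In all 3 lines RPS14 is mostly incomplete splice matches, and RPS20 has a large block of unannotated sites. RPS3 varies between lines, with 23.6%, 40.7% and 23.0% incomplete splice matches.

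The model with most reads was known for 19 of the 28 genes, a new combination for 8 and an incomplete splice match for 1. The 8 were RPS2, RPS4X, RPS10, RPS15A, RPS19, RPS21, RPS27A and RPS29, and the other was RPS14. Among genes with at least 500 reads, a new combination led in 8 of 26 small subunit genes (30.8%) and in 35 of 529 other genes (6.62%). At 1000 reads the shares were 32.0% and 7.69%. RPS29 is among the 8, although its annotated transcript RPS29-201 is shorter than any known model counted here, as given below. The same model led in all 3 lines for 24 of the 28 genes, and in all 8 libraries for 20.

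RPS2, at chr16:1962052-1964860 on the minus strand (GRCh38), had its reads on a new combination of 6 exons. That model took 75.6% and 80.6% of RPS2 reads in K562, 75.6%, 74.0% and 68.2% in HepG2, and 80.0%, 78.8% and 77.4% in GM12878. The annotated principal transcript RPS2-201 has 7 exons and had 3 of the 11680 RPS2 reads, and the most-read known model, RPS2-213, is a retained-intron transcript with 0.146%. Every HepG2 library was below every other, HepG2 replicate 1 by little, and K562 and GM12878 overlapped.

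RPS15A, at chr16:18781295-18790383 on the minus strand (GRCh38), was led by a new combination of 4 exons. It took 85.1% and 86.1% of RPS15A reads in K562, 88.0%, 85.2% and 84.7% in HepG2, and 86.7%, 83.4% and 79.0% in GM12878, and the lines overlapped. The 5-exon RPS15A-201 took 5.21%. In RPS29 a 3-exon new combination of 291 bases took 95% and 97.9% in K562, 95.5%, 92.5% and 95.3% in HepG2, and 93.2%, 92.3% and 88.3% in GM12878. The annotated RPS29-201 has 3 exons and 296 bases, under the 300 bases of the shortest known model in the tables, and had 0 reads assigned.

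Other leading models were less dominant. The RPS27A one took 67.3 ± 5.89% in K562, 61.3 ± 7.10% in HepG2 and 64.2 ± 0.682% in GM12878. The RPS10 one took 50.9 ± 7.45%, 56.2 ± 3.59% and 50.7 ± 0.720% in the same lines, and the RPS14 one 59.7 ± 1.0%, 55.5 ± 7.29% and 55.6 ± 6.65%. The models of RPS4X, RPS19 and RPS21 took 35.0 ± 4.45%, 38.9 ± 2.58% and 41.0 ± 4.16% in K562, 38.2 ± 2.99%, 39.4 ± 2.11% and 38.0 ± 0.816% in HepG2, and 39.0 ± 0.728%, 35.6 ± 3.07% and 33.9 ± 2.02% in GM12878. In RPS2, RPS4X, RPS10, RPS14, RPS15A, RPS19 and RPS21 the leading model had 1 exon fewer than the most-read principal transcript of the annotation. The tables give the length and exon number of a model but not where each read began, and a direct RNA read runs from the 3′ end and can stop short of the 5′ end. A read that stopped short therefore cannot be told apart from a transcript that starts further 3′ in RPS14, whose leading model is a suffix match. The same holds for the shares of suffix matches, contained chains and retained-intron models. The leading models of RPS2, RPS4X, RPS10, RPS15A, RPS19 and RPS21 are classed as new combinations. By the definition above, a read that only lacked its 5′ part would be an incomplete splice match. Why these models have 1 exon fewer was not tested.

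**Figure D5:**
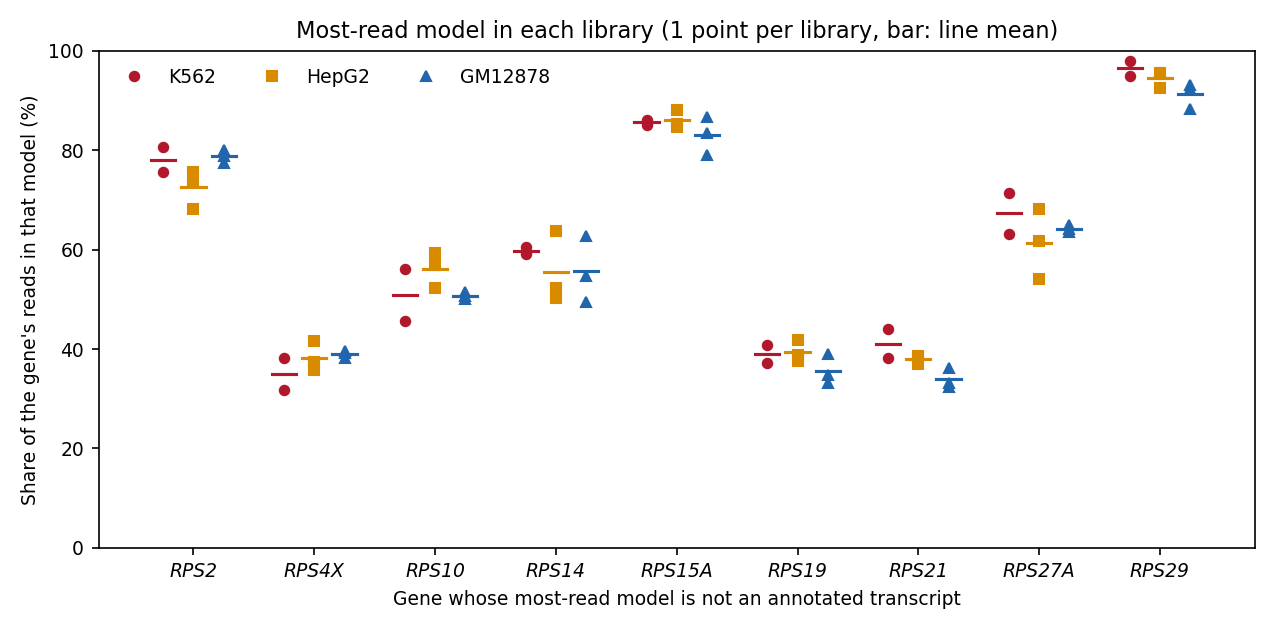
For the 9 genes whose most-read model is not classed as known, the share of the gene's reads on that model in each library. Bars are at line means, and the 3 lines stand side by side. RPS29, RPS15A and RPS2 sit above 65% in every library, and RPS4X, RPS19 and RPS21 below 45%.

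The 4 genes whose leading model changed with the line had 2 models whose shares were close when the 8 libraries were pooled. In RPS6, RPS6-204 took 15.9% and RPS6-203 15.6% of all reads, and RPS6-203 led in HepG2. In RPS23, RPS23-201 took 41.0% and RPS23-203 38.8%, and RPS23-203 led in GM12878. In RPS25, RPS25-202 took 41.1% and a 4-exon new combination 35.4%, which led in GM12878. These 2 were further apart within lines, with 608 and 451 reads in K562, 696 and 494 in HepG2, and 253 and 395 in GM12878. In RPS21 the leading 38.3% stood beside 35.3% for RPS21-201, which led in GM12878. RPS20, a head protein, was led by RPS20-201 at 52.6%, with an unannotated-site model of as many exons at 37.8%. Unannotated-site models took 37.7 ± 5.47% of RPS20 reads in K562, 37.6 ± 1.05% in HepG2 and 40.4 ± 1.53% in GM12878, against 6.35%, 5.05% and 6.38% over the 28 genes.

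Shifts between lines were tested for class shares. Of 27 genes tested (RPS26 was too low), edgeR's diffSpliceDGE called 0 in each comparison at a shift of at least 10 percentage points, where 0.492%, 0.154% and 0.0307% of 3253 genes were called in HepG2 against GM12878, K562 against GM12878 and K562 against HepG2. At an adjusted p under 0.05 and any shift there were 0 too, against 0.523%, 0.184% and 0.0307% of all genes. At an unadjusted p under 0.05 there were 5, 1 and 7 of the 27, with no share of all genes computed. The largest shift per gene had a median of 4.41, 2.70 and 4.46 percentage points and reached 17.8, 12.9 and 17.1. In HepG2 against GM12878 the count was 1 without K562 replicate 1 and 2 without K562 replicate 2, with HepG2 and GM12878 whole, and the cause was not tested.

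Of the 62885 reads on known models, 86.5% were on protein-coding transcripts and 12.4% on transcripts annotated as retained introns. The share on retained introns was 12.5 ± 0.825% in K562, 12.5 ± 1.49% in HepG2 and 13.3 ± 0.874% in GM12878. Of these reads, 93.7% were on models whose chain of introns is the 3′ part of a longer annotated one, such as RPS23-203 with 3 of 4 exons (2930 reads) and RPS18-236 with 5 of 6 (2691 reads). Over all known models 27.5% of reads were on such contained chains, with 24.5 ± 2.19% in K562, 30.6 ± 2.48% in HepG2 and 28.3 ± 1.07% in GM12878. They include coding models, RPS15-210 with 3011 reads, RPS9-204 with 2709 and RPS7-205 with 2190.

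Known transcript usage was tested in 25 genes, without RPS2, RPS4X and RPS26. With edgeR's diffSpliceDGE 0 were called at 10 points, where 1.55%, 0.564% and 0.846% of 709 genes were. An unadjusted p under 0.05 was found for 6, 2 and 5 of the 25, with no share of all genes computed. Without K562 replicate 2, 2 genes were called in K562 against HepG2, and without GM12878 replicate 1, 1 in HepG2 against GM12878. Below 10 points, RPS7, RPS9 and RPS24 passed an adjusted p of 0.05, as 3, 1 and 2 of the 25 genes in the 3 comparisons, against 2.12%, 0.705% and 1.41% of all genes. Mean shares given with these tests count only known transcripts with at least 10 reads. Shares by library, given after them, are over all known reads and differ slightly. RPS9-204 took 78.1% of RPS9 known reads in K562 and 84.3% in HepG2 (edgeR adjusted p = 1.96e-06), and 84.3% in HepG2 against 80.1% in GM12878 (edgeR adjusted p = 0.00967). RPS7-201, the 7-exon form, took 12.2% of RPS7 known reads in K562 and 3.06% in HepG2 (edgeR adjusted p = 0.0215), and 3.06% in HepG2 against 12.2% in GM12878 (edgeR adjusted p = 0.00967). RPS24-210, a retained-intron transcript, took 9.63% in HepG2 against 15.2% in GM12878 (edgeR adjusted p = 0.00133) and 12.5% in K562 against 15.2% in GM12878 (edgeR adjusted p = 0.0322). RPS7-201 and RPS9-204 are one end of such contained pairs, with RPS7-205 and RPS9-201.

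By library, RPS7-201 took 17.6% and 6.79% of RPS7 known reads in K562, 2.77%, 3.15% and 3.27% in HepG2, and 7.49%, 11.1% and 18.1% in GM12878. HepG2 was below all others, and the K562 libraries were far apart. RPS24-210 took 17.2% and 7.66% of RPS24 known reads in K562, 7.67%, 12.9% and 8.33% in HepG2, and 13.7%, 12.9% and 18.9% in GM12878, so K562 overlapped both other lines. RPS9-204 took 77.1% and 78.4% in K562, 81.7%, 85.3% and 85.6% in HepG2, and 79.5%, 84.2% and 75.0% in GM12878, with K562 below HepG2.

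Pseudogenes, some of them near-identical copies, took reads too, and a read of such a pair may have been placed on either. Of 62 listed pseudogenes of these genes, 51 had 9084 reads together. RPSAP58, 99.5% identical to RPSA over 888 aligned bases, had 3105 reads against 3810 of RPSA, whose pseudogenes took 45.6% of the reads of RPSA and its pseudogenes together. Those of RPS7 took 32.1%, those of RPS26 24.7% (23 reads beside 70), those of RPS3A 20.2% and those of RPS2 15.9%. In the libraries this share was 7.29% and 5.30% in K562, 4.78%, 7.10% and 4.78% in HepG2, and 6.99%, 9.54% and 9.94% in GM12878 over all 28 genes. With pseudogene reads added to their parents, RPS7 in HepG2 against GM12878 changed by 0.35 (edgeR adjusted p = 0.0665), so this difference is uncertain, as is that of RPS2 in K562 against GM12878 given above. RPSA in HepG2 against GM12878 was -0.88 with them and -0.65 without them.

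FAU, which encodes a small subunit protein fused to a ubiquitin-like protein, and RACK1, the signalling scaffold of the head, were not called in any comparison by edgeR. FAU was lower in HepG2 than in GM12878, at -0.54 (edgeR adjusted p = 0.00749), with mean levels of 1231 CPM in HepG2 and 1799.9 CPM in GM12878. RACK1 was higher in HepG2 than in GM12878 by 0.48 (edgeR adjusted p = 0.0147), with mean levels of 4371 CPM in HepG2 and 3139 CPM in GM12878. Both changes were below 2-fold, and neither gene passed an adjusted p of 0.05 in K562 against GM12878 or in K562 against HepG2.

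Factors that assemble the subunit were called no more often than genes at large. Of 31 listed, 23 were tested, and in HepG2 against GM12878 1 was called higher and 9 lower, with a median log2 change of -0.74. Of all genes tested 49.1% were called there, 28% higher and 21.1% lower. MPHOSPH10, of the early processome, was higher in HepG2 by 1.77 (edgeR adjusted p = 0.000508), and UTP14A was lower, at -2.30 (edgeR adjusted p = 5.49e-05). In K562 against HepG2 8 were called higher and 1 lower (median 0.47), against 44.1% of all genes, 17.4% higher and 26.7% lower. HEATR1, a processome scaffold, was among those higher, by 2.57 (edgeR adjusted p = 0.000336). In K562 against GM12878 1 was higher and 1 lower (median 0.01), against 28.7% of all genes. With both directions together, these shares of the 23 are below those of all genes in each comparison. The share called lower in HepG2 than in GM12878, and that called higher in K562 than in HepG2, were above those of all genes. These differences in share were not tested, and both comparisons use the same HepG2 libraries. Box C/D particles guide methylation of ribosomal RNA. All 4 of their core proteins were lower in HepG2 than in GM12878 at any fold, against 24.7% of all genes. Of these 2 were called, where 21.1% of all genes were called lower. They were NOP56, at -1.79 (edgeR adjusted p = 8.23e-07), and NOP58, at -1.40 (edgeR adjusted p = 0.000252). In K562 1 of the 4 was called lower than in GM12878 and 1 higher than in HepG2, against 14.8% and 17.4% of all genes.

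Of 11 other mRNAs known for TOP tracts, 2 were called in HepG2 against GM12878, 0 in K562 against GM12878 and 1 in K562 against HepG2, below the 49.1%, 28.7% and 44.1% of all genes. TPT1, the translationally controlled tumour protein, was higher in HepG2 than in GM12878 by 1.06 (edgeR adjusted p = 3.07e-07) and lower in K562 than in HepG2, at -2.0 (edgeR adjusted p = 1.64e-12). NPM1, a nucleolar chaperone, was lower in HepG2 than in GM12878, at -1.11 (edgeR adjusted p = 4.78e-07). Of 5 listed regulators 3 were tested, and EIF4EBP1, a repressor of translation under mTOR, was higher than in GM12878 both in HepG2, by 2.74 (edgeR adjusted p = 1.14e-10), and in K562, by 2.56 (edgeR adjusted p = 1.81e-08).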

How the data were processed

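Per the submitters' processing notes the aligner was minimap2 and the build hg38. The deposited tables are TALON abundance tables, per the labels (version: not given in the sources used here). The tables hold raw read counts per transcript model in the 8 libraries, per the file headers; each model's length and exon number, other values of the tables, were deposited too. All 20565 annotated genes matched GENCODE 29 by identifier. No value column was left unmapped (0).

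Counts of all models were summed by gene, passed through filterByExpr and TMM, and compared in 1 fit of all 8 libraries by edgeR 4.0.16 in R 4.3.3 (glmQLFit, robust, then glmQLFTest, two-sided). Adjustment was by Benjamini-Hochberg over all 4778 genes, separately for each comparison. Calls needed an adjusted p under 0.05 and an absolute log2 change of at least 1. Model class shares and known transcript usage were tested with diffSpliceDGE (Simes p) on features of 10 or more reads, where the gene had 10 or more in every line, with calls at a shift of at least 10 percentage points. CPM are over tested genes. DESeq2 1.42.0 was an alternative. Procedures were tested on simulated data. Replicate numbers were checked for pairing: correlations of deviations were -0.04 to 0.04, so the numbers were taken as names. P-values cover only how these libraries vary, possibly for technical reasons.

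The member genes, role lists and tests were chosen with earlier results of these data known. Given in every library were members called in a comparison, the 5 highest and 2 lowest by mean CPM, RPS2, RPS15A, RPS24, RPS27, RPS27L and members whose leading model was not known or varied by line, with called usage shifts, of which there were 0; the usage of RPS7, RPS9 and RPS24 was given after its values were seen. Other genes were chosen by list, and those named within a list after their values were seen. Some other components of the subunit are not reported here. Sequences are from GENCODE 29 and RefSeq; promoters of 3 members were not used here.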

Additional observations from a re-analysis of the deposited data

How the results depend on the processing

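Depth limits the 4 low genes: RPS26 had 70 reads, RPS27 499, RPS27L 590 and RPS28 1034. With 2 K562 libraries that differ, values that rest on K562 replicate 2 alone are the least certain. Of 39 gene changes at an adjusted p under 0.05, 557 recomputed values held 463 still past that threshold and 94 no longer past it, and 0 reversed. No longer past it were 14 of 28 without K562 replicate 2, 10 of 28 without HepG2 replicate 3 and 12 of 39 with known models only.

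The number of member genes called, 1 in HepG2 against GM12878, 3 in K562 against GM12878 and 1 in K562 against HepG2, was 3, 6 and 3 with known models only, 3, 3 and 3 with total read counts in place of TMM (which moved the median of all genes by -0.33, 0.00 and 0.24), and 2, 3 and 3 in fits of the 2 lines compared. Scaling without the members gave 2 in HepG2 against GM12878. Leaving out 1 library in turn gave 0 to 2, 1 to 4 and 1 to 3. HepG2 replicate 1 or GM12878 replicate 1 left 0 in HepG2 against GM12878 when dropped; K562 replicate 1 or K562 replicate 2 left 3 in K562 against HepG2. At any fold the counts of 11, 11 and 17 were 17 in HepG2 against GM12878 with total read counts and 11 in K562 against HepG2 by DESeq2, and 9 to 14, 8 to 12 and 8 to 18 with 1 library left out. With the replicate block, counts were 1, 3 and 1, and 12, 9 and 12 at any fold, and 0 usage calls; the replicate numbers do not pair the libraries. DESeq2 called 1, 3 and 1 members. Class share calls in HepG2 against GM12878 were 1 in the fit of those lines and 0 to 2 with 1 library left out, with 0 to 0 in the other comparisons. Transcript usage calls were 0 to 1 in HepG2 against GM12878, 0 to 0 in K562 against GM12878 and 0 to 2 in K562 against HepG2.

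The share of a library from the 28 genes was 4.23% in K562, 2.63% in HepG2 and 3.57% in GM12878 with known models only, and 7.99% in HepG2 with TMM-scaled libraries; without 1 library it was 7.92% to 9.11%, 5.93% to 6.17% and 7.54% to 7.96%. The known share of member reads was 82.9% in K562, 76.2% in HepG2 and 76.7% in GM12878 over known and incomplete splice matches, and 54.2%, 51.8% and 51.6% as a mean over genes; without 1 library it was 48.3% to 50.8%, 41.8% to 44.1% and 44.9% to 47.4%. The known-models share counts only member reads on known models over the same library total; the causes of the other shifts were not tested. Alternatives that add pseudogene reads were chosen after seeing the data.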
